A study of Rattus norvegicus with 20 samples.

Results

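Of 10 genes that human genetics links to the risk of Alzheimer's disease, 9 could be followed in the rat hippocampus: Bin1, Clu, Picalm, Sorl1, Abca7, Cd2ap, Ptk2b, Plcg2 and Inpp5d. They were listed by symbol, with earlier results of these data known, and are 9 of the 17168 genes measured. Cd33, the tenth, was not analysed here, since no row was matched to its symbol. None of the 9 differed between transgenic and wild-type rats or between treated and untreated transgenic rats past the thresholds used. The 95% intervals, taken gene by gene and not adjusted for their number, lay between 0.728 and 1.35 fold. For all 9 the rats of at least 1 group ranged more widely than the group means differed. Correlations among the 9 genes were computed after the values had been seen. Bin1 went with Ptk2b from rat to rat in the treatment comparison by Pearson's r and Spearman's rho after adjustment. Sorl1 with Ptk2b passed there by Pearson's r alone (r = 0.903). In the genotype comparison these pairs had r = 0.687 and 0.827 and did not pass after adjustment. In the treatment comparison Bin1 and Ptk2b each also passed by Pearson's r with summed neuronal, astrocyte and oligodendrocyte markers (r from 0.838 to 0.973).

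The risk genes code for proteins of a few linked systems. Neurons and glia take up membrane proteins by endocytosis and sort them between the cell surface, endosomes and Golgi, a route that the amyloid precursor protein also follows. Lipid carriers and transporters move cholesterol and phospholipids between astrocytes, neurons and microglia, and microglia pass signals from surface receptors to lipid kinases, phosphatases and phospholipases. Common or rare variants near these genes change the risk of late-onset disease in people, which says nothing by itself about how much of their mRNA a rat hippocampus holds.

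Hippocampal mRNA was sequenced from single female rats at 4 months of age, 1 library a rat. In the genotype comparison, 5 untreated wild-type rats (WTNT) were set against 5 untreated TgF344-AD rats (TGNT). Rats of this Fischer line carry human transgenes for the Swedish APP mutation and for presenilin-1 without exon 9, both under the prion promoter. In the treatment comparison, 4 other TGNT rats were set against 6 TGTR rats of the same line, fed diazoxide (DZ, 10 mg/kg a day) and dibenzoylmethane (DIB, 200 mg/kg a day) in chow from day 52 of age. There were no treated wild-type rats among these samples, so that every rat of the treatment comparison carried both transgenes.

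The deposited totals ran from 5848458 to 9926088 counts a rat in the genotype comparison and from 9215039 to 14175594 in the treatment comparison. App, the rat counterpart of a transgene and the check of the genotype labels, was 1.99 fold higher in TGNT than WTNT rats, and the groups did not overlap. No list of 4 to 6 markers of neurons, astrocytes, oligodendrocytes, microglia, endothelium, choroid plexus or blood had a gene at 0 in every rat. TGTR replicate 5 stood apart by its choroid plexus markers, which summed to 2822 RPM against at most 134 RPM in the other TGTR rats. Ttr, the transthyretin gene of choroid plexus, was at 2501 RPM in that rat and at 108 RPM in TGTR replicate 6. TGTR replicate 4 stood apart by blood markers, at 1293 RPM against at most 258 RPM.

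In the genotype comparison, which asks what the transgenes change before or at the start of pathology, 0 of the 9 risk genes passed an adjusted p under 0.05 with a fold change of 1.5, where 0.0116% of all genes did. DESeq2 and the likelihood ratio test of edgeR also called 0 of them. Clu was higher and Sorl1 lower at an unadjusted p under 0.05, which makes 2 of 9 genes. At that p 1.72% of all genes were higher and 1.5% lower, 3.23% together, or 3.89% of the 11357 genes with 10 or more counts on average. The adjusted p was 1.0 for each of the 9. Clu had the higher mean in TGNT rats and the other 8 a lower mean. The median of the 9 was -0.04 on the log2 scale, beside 0.01 over those 11357 genes, of which 52.4% were above 0. The groups overlapped for all 9 genes, while 0.513% of all genes had groups that did not overlap. Beside this, the oligodendrocyte markers had a lower mean in TGNT rats for 6 of 6 genes, 2 of them at an unadjusted p under 0.05, with a median of -0.23 on the log2 scale. Their sum was 4384 to 9872 RPM in WTNT and ranged over 4132 to 7458 RPM among TGNT rats, and their part in the levels of the risk genes was not tested.

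Sorl1 codes for a sorting receptor that works with the retromer and holds the amyloid precursor protein away from the compartments where it is cut. Its level was 1156, 1168, 840.1, 1142 and 813 RPM (reads scaled by library size and TMM factors by the authors) in WTNT replicates 1 to 5, and 904, 857, 807, 934 and 883 RPM in TGNT replicates 1 to 5. WTNT replicates 1, 2 and 4 lay above every TGNT rat, and the other WTNT rats lay among them. The log2 fold change was -0.22 (SE 0.10, 95% interval -0.43 to -0.0045), with an unadjusted p of 0.0459 in edgeR's quasi-likelihood test and an exact permutation p of 0.151 for the RPM. The SD was 181 RPM in WTNT rats and 48.4 RPM in TGNT rats, n = 5 each. Leaving out single rats moved the log2 fold change from -0.17 (without WTNT replicate 2, unadjusted p = 0.129) to -0.29 (without WTNT replicate 3, unadjusted p = 0.00624, or replicate 5, unadjusted p = 0.00532).

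Clu codes for clusterin, a secreted chaperone and lipid carrier that astrocytes make in large amounts. It was at 596, 592, 598, 560.2 and 565 RPM in the WTNT rats and at 572, 612, 626, 673 and 679.9 RPM in the TGNT rats. Of the 5 TGNT rats, 4 were above the highest WTNT rat, and TGNT replicate 1 was within the WTNT range. The log2 fold change was 0.13 (SE 0.06, 95% interval 0.0007 to 0.25), with an unadjusted p of 0.049 in the quasi-likelihood test and an exact permutation p of 0.0556. Leaving out single rats moved the log2 fold change of Clu from 0.0899 (without TGNT replicate 5, unadjusted p = 0.165) to 0.16 (without TGNT replicate 1, unadjusted p = 0.0119), and only without TGNT replicate 1 was the unadjusted p under 0.05. The astrocyte markers, beside which a Clu level is read, had a higher mean for 4 of 6 genes, 0 of them past an unadjusted p of 0.05, and a median of 0.03 on the log2 scale. Abca7, a transporter that flips phospholipids across membranes, was at 17.3 ± 1.18 RPM in WTNT and 17.0 ± 3.07 RPM in TGNT rats (SD, n = 5), a log2 fold change of -0.02 (95% interval -0.29 to 0.25).

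The genes of membrane uptake differed between genotypes by less than the SD of either group. Bin1, an amphiphysin-type protein that bends membranes into tubules, was at 215 ± 12.4 RPM in WTNT and 209 ± 8.61 RPM in TGNT rats. Its log2 fold change was -0.04 (SE 0.06, 95% interval -0.16 to 0.09). Picalm, a clathrin assembly protein, was at 195 ± 19.1 and 194 ± 19.4 RPM, with a log2 fold change of -0.0027 (95% interval -0.18 to 0.17). Cd2ap, an adaptor that ties membrane proteins and endosomes to actin, was at 38.8 ± 4.39 and 37.8 ± 2.63 RPM, with a log2 fold change of -0.04 (95% interval -0.22 to 0.15). All values are means ± SD over 5 rats.

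Ptk2b codes for the calcium-activated kinase PYK2, of the focal adhesion kinase family, which is strongly expressed in forebrain neurons. It was at 1156, 978, 618, 1065 and 797 RPM in the WTNT rats and at 1000.0, 780.4, 824, 839.5 and 843 RPM in the TGNT rats. The WTNT rats spanned the whole TGNT range on either side, and the log2 fold change was -0.10 (SE 0.13, 95% interval -0.38 to 0.18, unadjusted p = 0.455). Leaving out WTNT replicate 3, the rat with the lowest level, gave a log2 fold change of -0.23 at an unadjusted p of 0.0305, and leaving out WTNT replicate 1, the rat with the highest level, gave -0.0117 at an unadjusted p of 0.927. The other fits without a rat lay between these, at unadjusted p-values of 0.269 to 0.717.

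Inpp5d and Plcg2 act below receptors of myeloid cells. Inpp5d codes for SHIP1, a phosphatase that removes a phosphate from the lipid product of PI3-kinase, and Plcg2 for a phospholipase C that releases calcium and diacylglycerol signals. Inpp5d was at 16.1, 17.5, 25.6, 14.3 and 21.0 RPM in the WTNT rats and at 14.0, 19.0, 19.6, 19.0 and 16.7 RPM in the TGNT rats. WTNT replicates 3 and 5 were above every TGNT rat and WTNT replicate 4 was below all TGNT rats but replicate 1. The log2 fold change was -0.10 (95% interval -0.42 to 0.22), and it turned to 0.0247 (unadjusted p = 0.854) without WTNT replicate 3. Plcg2 rested on 16 to 47 counts a rat, and its interval was the widest of the 9, from -0.46 to 0.39 around a log2 fold change of -0.03. The microglia markers had a higher mean in TGNT rats for 6 of 6 genes, with a median of 0.10 on the log2 scale and 0 genes past an unadjusted p of 0.05. In bulk tissue, fewer cells of a type and less RNA per cell cannot be told apart.

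**Figure D1:**
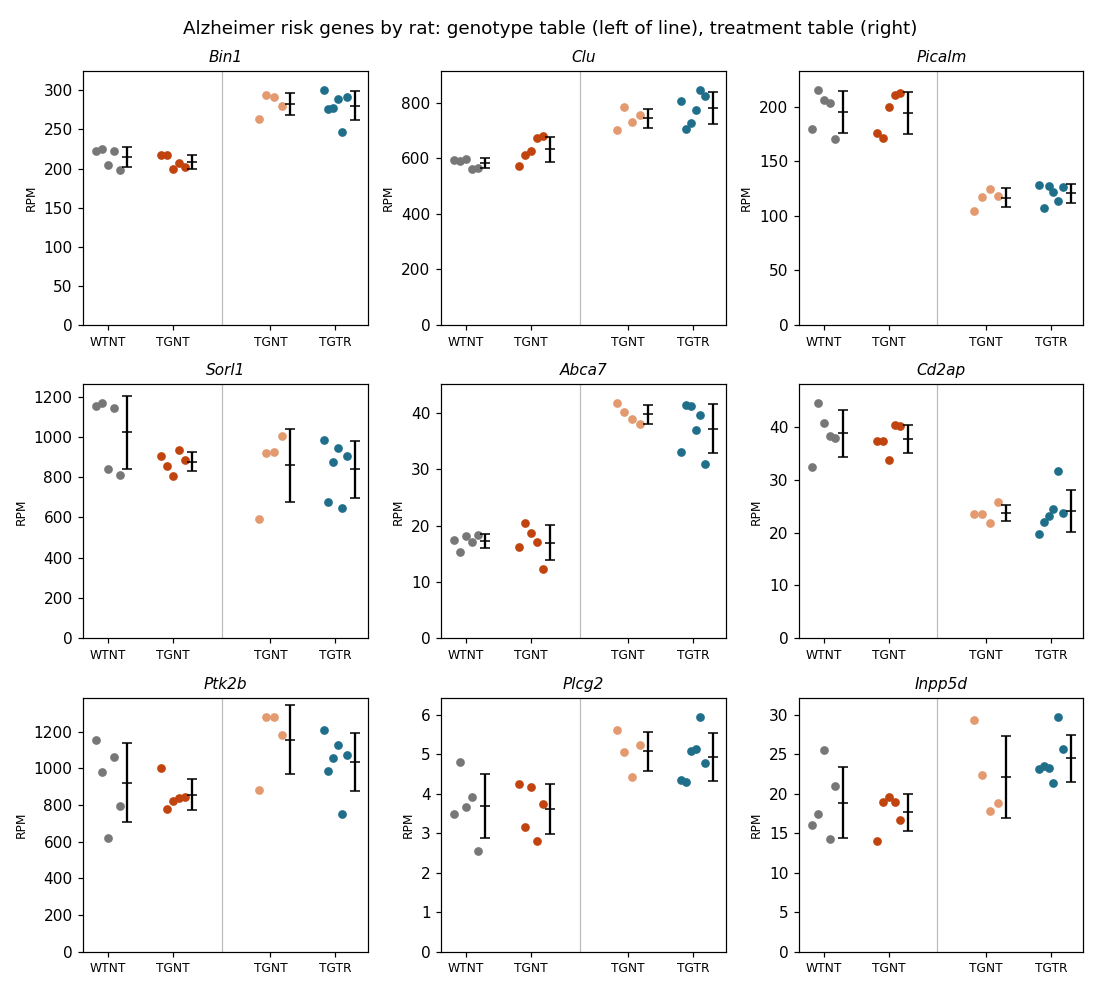
RPM of each risk gene in every rat (points), with the mean and SD of each group (black bar), in the genotype comparison left of the grey line and the treatment comparison right of it; the y axes are linear and start at 0. Within each comparison the groups overlap for all 9 genes, as for Sorl1, which spans 813 to 1168 RPM in the WTNT and 807 to 934 RPM in the TGNT rats.

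In the treatment comparison, which asks whether DZ/DIB changes hippocampal expression in transgenic rats, 0 of the 9 genes passed the same thresholds, where 0.0% of all genes did. Over all genes 843 were at an unadjusted p under 0.05 (4.91%, of which 2.98% higher and 1.93% lower; 6.14% of the 12029 genes with 10 or more counts on average), DESeq2 called 3 genes and the likelihood ratio test called 5. None of the 9 was at an unadjusted p under 0.05, and their adjusted p ran from 0.994 to 1.0. Clu, Picalm, Cd2ap and Inpp5d had a higher mean in TGTR rats and the other 5 a lower mean. Their median was -0.0076 on the log2 scale, beside 0.0002 over those 12029 genes, of which 50.1% were above 0. The groups overlapped for all 9 genes, while 1.15% of all genes had groups that did not overlap. Among the cell type markers, 2 of 5 genes of endothelium and pericytes and 2 of 6 of choroid plexus had a higher mean in TGTR rats at an unadjusted p under 0.05. The choroid plexus values rested on TGTR replicates 5 and 6, with sums of 2822 and 134 RPM. The other TGTR rats, at 3.39 to 6.0 RPM, lay below every TGNT rat, at 7.8 to 16.8 RPM. The oligodendrocyte markers had a higher mean for 6 of 6 genes with a median of 0.22 on the log2 scale. The part of these cell type markers in the levels of the risk genes was not tested.

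Ptk2b had the lowest p of the 9. It was at 881, 1283, 1280.4 and 1184 RPM in the TGNT rats and at 1208, 985, 1055, 1129, 752 and 1075 RPM in TGTR replicates 1 to 6. TGNT replicates 2 and 3 were higher than every TGTR rat, TGNT replicate 4 was lower than TGTR replicate 1 alone, and TGNT replicate 1 was lower than all TGTR rats but replicate 5. The log2 fold change was -0.16 (SE 0.13, 95% interval -0.43 to 0.11, unadjusted p = 0.229 in the quasi-likelihood test), and the exact permutation p was 0.295.

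Inpp5d was at 29.4, 22.4, 17.9 and 18.8 RPM in the TGNT rats and at 23.2, 23.6, 23.3, 21.4, 29.8 and 25.7 RPM in the TGTR rats. TGNT replicate 1 was the second highest of the 10 rats, and TGNT replicates 3 and 4 lay below every TGTR rat. The log2 fold change was 0.15 (SE 0.13, 95% interval -0.14 to 0.44, unadjusted p = 0.289). Without TGNT replicate 1 it was 0.32 at an unadjusted p of 0.0122, and that of Ptk2b was -0.27 at an unadjusted p of 0.0329. Other rats moved the values the other way: without TGNT replicate 3 the log2 fold change of Inpp5d was 0.0557 (unadjusted p = 0.689), without TGNT replicate 4 it was 0.0775 (unadjusted p = 0.598), and without TGTR replicate 5 that of Ptk2b was -0.0817 (unadjusted p = 0.417). TGNT replicate 1 was also the lowest of the TGNT rats by neuronal markers, which summed to 4432 RPM against 5168 to 5419 RPM in the others. The part of this difference between rats in the comparison was not tested.

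Sorl1 was at 594, 918, 923 and 1005 RPM in the TGNT rats and at 987, 678, 875, 944, 646 and 907 RPM in the TGTR rats. TGNT replicate 1 and TGTR replicates 2 and 5 lay well below the other rats of their groups, and the log2 fold change was -0.03 (SE 0.15, 95% interval -0.35 to 0.29). Clu was at 704, 784, 732 and 758 RPM in the TGNT rats and at 807, 705, 728, 776, 848 and 826 RPM in the TGTR rats. Of the 6 TGTR rats, 3 were above the highest TGNT rat, and the log2 fold change was 0.07 (SE 0.06, 95% interval -0.06 to 0.20, unadjusted p = 0.243).

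The other 5 genes had unadjusted p-values from 0.287 to 0.9. Bin1 was at 282 ± 13.9 RPM in TGNT and 280.3 ± 18.8 RPM in TGTR rats, with a log2 fold change of -0.0076 (SE 0.06, 95% interval -0.13 to 0.12). Picalm was at 116 ± 8.69 and 121 ± 8.59 RPM, with a log2 fold change of 0.06 (SE 0.06). Abca7 was at 39.8 ± 1.64 and 37.3 ± 4.4 RPM, and 3 of 6 TGTR rats were below the lowest TGNT rat, with a log2 fold change of -0.09 (SE 0.08, unadjusted p = 0.287). Plcg2 was at 5.09 ± 0.492 and 4.94 ± 0.61 RPM, on 57 to 65 counts a rat, with a log2 fold change of -0.04 (SE 0.13). Cd2ap was at 23.7 ± 1.53 and 24.1 ± 4.03 RPM (SD, n = 4 and 6), and its highest rat, at 31.6 RPM, was TGTR replicate 5, the rat that stood apart by choroid plexus markers. Without that rat the log2 fold change of Cd2ap went from 0.02 to -0.06, that of Bin1 from -0.0076 to 0.03 and that of Sorl1 from -0.03 to 0.03.

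**Figure D2:**
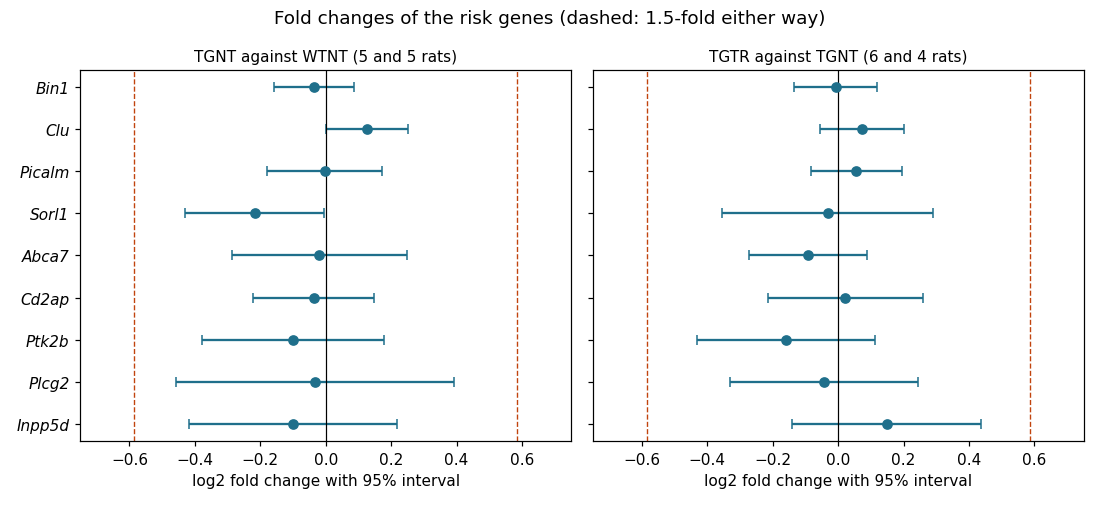
Log2 fold changes (points) and 95% intervals (bars) of the 9 risk genes in the genotype comparison (left) and the treatment comparison (right), with dashed lines at 1.5 fold either way. All 18 intervals lie between the dashed lines, and those of Clu (0.0007 to 0.25) and Sorl1 (-0.43 to -0.0045) in the genotype comparison do not reach 0.

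The 9 genes varied among rats of a group to very different degrees. The biological coefficient of variation that edgeR estimated for a gene in the genotype comparison ran from 7.27% for Bin1 to 15.4% for Ptk2b, which placed them at percentiles 11.7 and 81.4 of 11357 genes. Inpp5d was at 15.3%, and the 6 microglia markers ran from 6.74% to 15.3%. Bin1 was again the lowest in the treatment comparison at 7.75% and Sorl1 the highest at 17.1%, with Ptk2b at 14.7% and Inpp5d at 14.3%. The microglia markers ran there from 6.03% to 12.2%, below Inpp5d. A difference between the coefficients was not tested.

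The rat-to-rat differences were shared among some members. In the wild-type group, replicates 1, 2 and 4 had the higher levels of Sorl1 (1142 to 1168 RPM), Ptk2b (978 to 1156 RPM) and Bin1 (222 to 225 RPM), and replicates 3 and 5 the lower levels of all 3 genes. The same replicates 3 and 5 had the higher levels of Inpp5d, 25.6 and 21.0 RPM, against 14.3 to 17.5 RPM. These groups of rats were seen in the values and are not groups of the study.

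Correlations were therefore computed, after the values had been seen, for all 36 pairs of members in each table, 72 in all, on log2(RPM + 1) as deviations from the group mean over 10 rats. P-values came from 100000 permutations of the rats within groups and were adjusted over the 72 pairs. Bin1 and Ptk2b of the treatment comparison had a Pearson r of 0.96 (permutation p = 0.00029, adjusted p = 0.0209) and a Spearman rho of 0.952 (permutation p = 0.00055, adjusted p = 0.0396). Without the pair of rats farthest from the median of Bin1, r was 0.885. The same genes in the genotype comparison had r = 0.687 (permutation p = 0.0584, adjusted p = 0.183), rho = 0.636 and r = 0.548 without the farthest rats.

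Sorl1 and Ptk2b had r = 0.903 (permutation p = 0.00196, adjusted p = 0.0472) and rho = 0.721 (permutation p = 0.0317, adjusted p = 0.176) in the treatment comparison, and r = 0.725 without the farthest rats. Over the rats of the genotype comparison they had r = 0.827 (permutation p = 0.0415, adjusted p = 0.183), rho = 0.855 (permutation p = 0.03, adjusted p = 0.176) and r = 0.726 without the farthest rats. Leaving out any 1 rat kept r between 0.78 and 0.941 over both tables.

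Ptk2b and Inpp5d went opposite ways. In the genotype comparison r was -0.93 (permutation p = 0.00253, adjusted p = 0.0472), rho was -0.952 (permutation p = 0.00155, adjusted p = 0.0558) and r without the farthest rats was -0.94. In the treatment comparison r was -0.816 (permutation p = 0.018, adjusted p = 0.169) and rho -0.552 (permutation p = 0.123, adjusted p = 0.317), and r without the farthest rats was -0.146, so that the relation there rested on TGNT replicate 1 and TGTR replicate 5. Cd2ap and Plcg2 had r = 0.854 (permutation p = 0.00262, adjusted p = 0.0472; rho 0.758, adjusted p = 0.176) in the treatment comparison, with r = 0.715 without the farthest rats, and r = 0.149 (permutation p = 0.725, adjusted p = 0.816; rho 0.176) in the genotype comparison. An adjusted p under 0.05 by Pearson's r was reached by 4 of 72 pairs, Bin1 and Sorl1 with Ptk2b and Cd2ap with Plcg2 in the treatment comparison and Ptk2b with Inpp5d in the genotype comparison, and Bin1 with Ptk2b was the only 1 by Spearman's rho. Signs over all pairs were even, with 18 of 36 above 0 in the genotype and 19 of 36 in the treatment comparison.

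**Figure D3:**
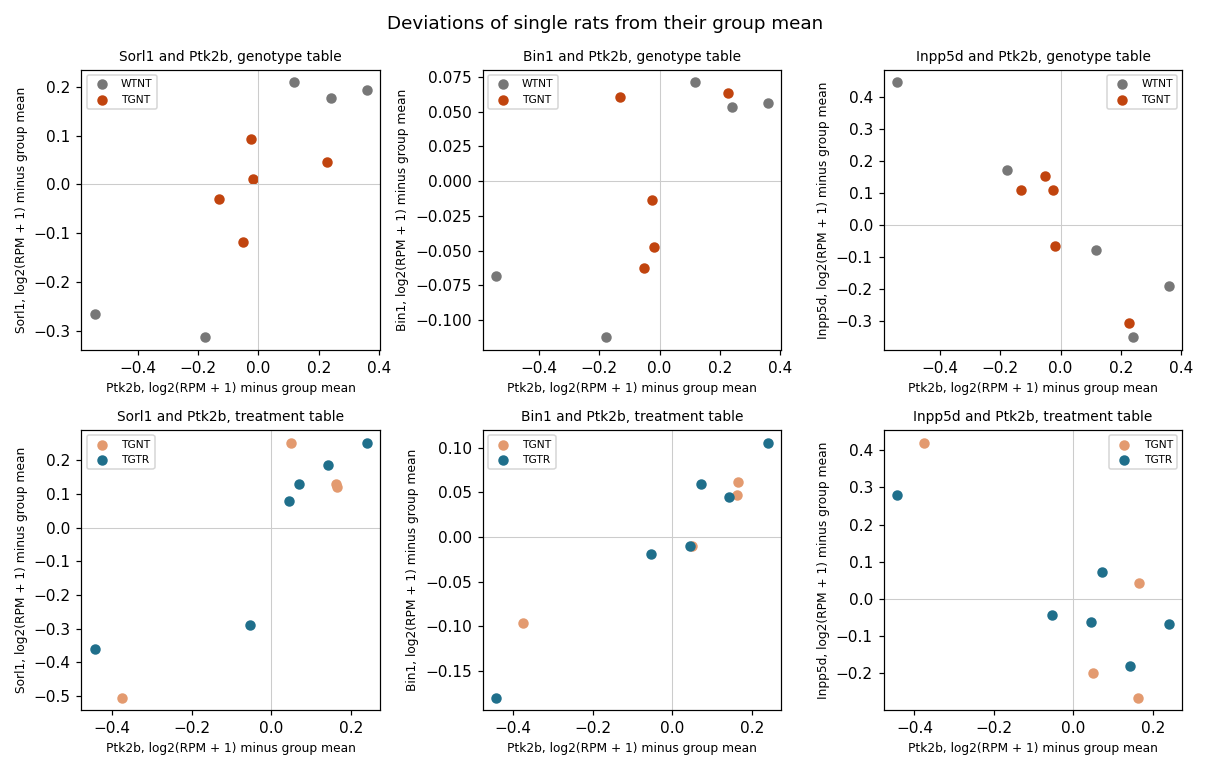
Deviation of each rat from its group mean, in log2(RPM + 1), of Ptk2b (x axis) against Sorl1, Bin1 and Inpp5d (y axes), in the genotype table (top) and the treatment table (bottom); each point is 1 rat. Sorl1 and Bin1 go up with Ptk2b in both tables (r = 0.827 and 0.687 above, 0.903 and 0.96 below), while Inpp5d goes down (r = -0.93 above, -0.816 below).

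The rat with the lowest Ptk2b of its group had the lowest sum of 6 neuronal markers in every group: WTNT replicate 3 (618 RPM Ptk2b, neuronal sum 6097 RPM, next 6316 RPM), TGNT replicate 2 of the genotype comparison (780.4 RPM, 5771 RPM, next 5972 RPM), TGNT replicate 1 of the treatment comparison (881 RPM, 4432 RPM, next 5168 RPM) and TGTR replicate 5 (752 RPM, 4207 RPM, next 4663 RPM). In 3 of these 4 groups, all but the TGNT rats of the genotype comparison, that rat also had the highest Inpp5d, at 25.6, 29.4 and 29.8 RPM. Camk2a had the largest SD of the 6 neuronal markers in the treatment comparison, 394.2 RPM in TGNT and 344.6 RPM in TGTR rats. Snap25 was next, at 40.3 and 56.4 RPM. For the genotype comparison the SDs were 502.9 RPM (Camk2a) and 223.0 RPM (Snap25) in WTNT rats, 138.2 and 225.6 RPM in TGNT rats. The low sums were not limited to neuronal markers: TGNT replicate 1 of the treatment comparison and TGTR replicate 5 also had the lowest astrocyte sums (3691 and 3324 RPM) and oligodendrocyte sums (4018 and 4688 RPM) of their groups, while WTNT replicate 3 had the highest oligodendrocyte sum of its group, 9872 RPM. RPM over all genes summed to 985364 in that TGNT rat, against 1013082 to 1027920 in the others of its group. TGTR replicate 5 summed to 930396, against 975014 to 1011968. WTNT replicate 3 was also lowest of its group (987898), while TGNT replicate 2 of the genotype comparison (996861) was not. The part of these totals in the sums was not tested.

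Of 90 relations between a member and the summed markers of 5 cell types, computed the same way after the values had been seen, 10 had an adjusted permutation p under 0.05 by Pearson's r and 2 by Spearman's rho, and all were in the treatment comparison. Ptk2b with the neuronal markers had r = 0.973 there (permutation p = 7e-05, adjusted p = 0.00585; rho 0.952, adjusted p = 0.009), and 0.806 without the farthest rats. Bin1 with the neuronal markers had r = 0.933 (permutation p = 0.00013, adjusted p = 0.00585; rho 0.939, adjusted p = 0.022), and 0.747 without the farthest rats. Most of the spread of the neuronal sum there came from Camk2a, and relations with single markers were not tested. The relations were not particular to neuronal markers. Ptk2b had r = 0.838 with the astrocyte and 0.872 with the oligodendrocyte markers (permutation p = 0.00212 and 0.00135, adjusted p = 0.0318 for both; rho 0.855 and 0.818, adjusted p = 0.0694). Bin1 had r = 0.858 and 0.844 with them (permutation p = 0.00436 and 0.00289, adjusted p = 0.0436 and 0.0372; rho 0.782 and 0.83). Sorl1 had r = 0.946 with the oligodendrocyte, 0.928 with the neuronal and 0.781 with the astrocyte markers (adjusted permutation p = 0.0318, 0.0387 and 0.0318; rho 0.842, 0.673 and 0.83, adjusted p = 0.0694, 0.264 and 0.0694). In the genotype comparison Ptk2b with the neuronal markers had r = 0.683 (permutation p = 0.0256, adjusted p = 0.131; rho 0.588, adjusted p = 0.381) and 0.446 without the farthest rats. There Bin1 with the neuronal markers and Sorl1 with the oligodendrocyte markers each had r = 0.271 (permutation p = 0.456 and 0.576, adjusted p = 0.788 and 0.823; rho 0.261 and 0.127).

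Inpp5d, known from myeloid cells, did not pass with the microglia markers in either comparison. In the genotype comparison r was 0.21 (permutation p = 0.551, adjusted p = 0.812, rho 0.0912), and 0.000642 without the farthest rats. In the treatment comparison r was 0.232 (permutation p = 0.653, adjusted p = 0.89, rho 0.455), and 0.666 without the farthest rats. The microglia sums ran only from 144 to 165 RPM in the genotype comparison and from 181 to 205 RPM in the treatment comparison. Clu with the astrocyte markers had r = 0.868 (permutation p = 0.00838, adjusted p = 0.0686, rho 0.867, adjusted p = 0.127) in the genotype comparison. In the treatment comparison it had r = 0.0584 (permutation p = 0.896, adjusted p = 0.972, rho 0.212). Without the farthest rats r was 0.74 in the genotype and 0.837 in the treatment comparison, so the value near 0 depended on those rats. The part of the makeup of the dissected tissue in these shared differences was not tested.

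Promoter sequences were available from RefSeq for 7 of the 9 genes (build GRCr8, from 250 bases before to 50 after the start of transcription), all but Clu and Ptk2b. Inpp5d is set apart from the other 6 by its base composition. The ratio of CpG dinucleotides observed to those expected from the base counts was 0.252 in Inpp5d and between 0.642 (Bin1) and 1.1 (Sorl1) in the others, against a median of 0.392 over 33469 promoters. Motifs were searched on both strands, and the 5 motifs were chosen after the levels were known. The letters GAGGAAGT, a site type of the myeloid factor PU.1, occur in 2.42% of all promoters and among the 7 in Inpp5d alone. The letters TGACGTCA, the cAMP response element, occur in 1.83% of all promoters and among the 7 in Cd2ap alone. The TATA box letters TATAAA were in Plcg2 (14.2% of all promoters), CCAAT in Abca7, Cd2ap and Inpp5d (37.5%), and the GC box letters GGGCGG in Picalm, Abca7, Bin1 and Plcg2 (33.1%). The pair of stretches with an 8-base match is shown on the plus strand, with the match in capitals, for Inpp5d at chr9:95735421-95735540, where the match begins 3 bases before the start, and for Cd2ap at chr9:25583855-25583974, where it begins 86 bases before it.
Inpp5d: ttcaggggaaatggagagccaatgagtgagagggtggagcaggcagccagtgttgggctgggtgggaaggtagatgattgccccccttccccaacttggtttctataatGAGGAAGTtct
Cd2ap: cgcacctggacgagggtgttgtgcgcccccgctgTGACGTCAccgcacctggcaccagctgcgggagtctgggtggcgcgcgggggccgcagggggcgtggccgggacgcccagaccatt
A match is a run of letters, and binding was not measured here.

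The genes around the members were looked at as 6 lists, and 0 of their genes passed the thresholds of the main test in either comparison. Among 36 other human risk loci, 1 gene was higher and 1 lower at an unadjusted p under 0.05 in the genotype comparison. The share of all genes at that p was 3.23% there and 4.91% in the treatment comparison. A log2 fold change above 0 was found for 52.4% of 11357 genes in the genotype and 50.1% of 12029 in the treatment comparison. None of the lists was tested against these shares. Wwox, an oxidoreductase with WW domains, was at 3.48 ± 0.854 RPM in WTNT and 4.87 ± 0.971 RPM in TGNT rats (log2 fold change 0.47, unadjusted p = 0.0342, adjusted p = 1.0). Sharpin, a subunit of a ubiquitin ligase, was the lower gene, with a log2 fold change of -0.23 (unadjusted p = 0.0354, adjusted p = 1.0), and is named after its value was seen. With treatment 1 of the 36 was at that p, Adamts1, a secreted metalloprotease, at 5.57 ± 0.248 RPM in TGNT and 9.34 ± 5.13 RPM in TGTR rats (log2 fold change 0.73, unadjusted p = 0.0292, adjusted p = 0.964). Its groups did not overlap, and TGTR replicate 5, the rat with the choroid plexus markers, was at 19.7 RPM while the other TGTR rats were at 6.54 to 8.44 RPM. The median log2 fold change of the list was 0.03 in both comparisons.

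Of 33 genes of clathrin-mediated endocytosis, the system of Bin1, Picalm and Cd2ap, 12 had a higher mean in TGNT than WTNT rats and 7 had a higher mean in TGTR than TGNT rats. The medians were -0.02 and -0.05 on the log2 scale. Hip1, which binds clathrin and actin, was lower in TGNT rats at an unadjusted p of 0.0443 (61.0 ± 3.99 and 55.1 ± 2.77 RPM, adjusted p = 1.0). Sh3gl2, which codes for endophilin A1, had the lowest p in the treatment comparison at 0.0576, with a log2 fold change of -0.12.

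Of 20 genes of the retromer and of sorting receptors, the system of Sorl1, 10 had a higher mean in TGNT rats and 7 in TGTR rats. Sort1, which codes for the related receptor sortilin, was at 1280.4 ± 91.8 RPM in WTNT and 1157 ± 33.7 RPM in TGNT rats (log2 fold change -0.14, unadjusted p = 0.0291, adjusted p = 1.0). Snx5, a retromer-linked sorting nexin, had the lowest p in the treatment comparison, 0.0689, with a log2 fold change of 0.08.

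Of 17 genes of lipoproteins and lipid efflux, the system of Clu and Abca7, 8 had a higher mean in TGNT rats and 9 in TGTR rats. Abcg1, a cholesterol exporter, was lower in TGNT rats at an unadjusted p of 0.0459 (log2 fold change -0.13, adjusted p = 1.0). Lpl, lipoprotein lipase, had the lowest p of the list with treatment, 93.7 ± 5.04 RPM in TGNT and 81.8 ± 4.3 RPM in TGTR rats (log2 fold change -0.19, SE 0.05, unadjusted p = 0.00236, adjusted p = 0.913). Only TGTR replicate 2, at 89.6 RPM, reached the TGNT range of 89.4 to 101 RPM. Nr1h2, a liver X receptor that turns on cholesterol export genes, went the other way, with a log2 fold change of 0.19 (unadjusted p = 0.0124, adjusted p = 0.964), and was chosen for naming after its value was seen.

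Of 21 genes of immunoreceptor signalling in myeloid cells, the system of Plcg2 and Inpp5d, 12 had a higher mean in TGNT rats and 9 in TGTR rats. Inppl1, the relative of Inpp5d that codes for SHIP2, had the lowest p in the genotype comparison, 0.126, with a log2 fold change of -0.11. Prkcd, a protein kinase C, was higher in TGTR rats at an unadjusted p of 0.0437 (8.79 ± 1.9 and 13.3 ± 5.44 RPM, adjusted p = 0.99). Its highest rats were TGTR replicates 5 and 6, at 22.1 and 17.8 RPM, the TGTR rats with the highest Ttr, and the part of the choroid plexus markers in this value was not tested. Of 20 genes of focal adhesion kinase signalling, the system of Ptk2b, 4 had a higher mean in TGNT rats and 9 in TGTR rats, with medians of -0.05 and -0.01. Bcar1, the adaptor p130Cas, was lower in TGNT rats at an unadjusted p of 0.0411 (log2 fold change -0.16, adjusted p = 1.0), and Sos1, an activator of Ras, had the lowest p with treatment, 0.112.

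**Figure D4:**
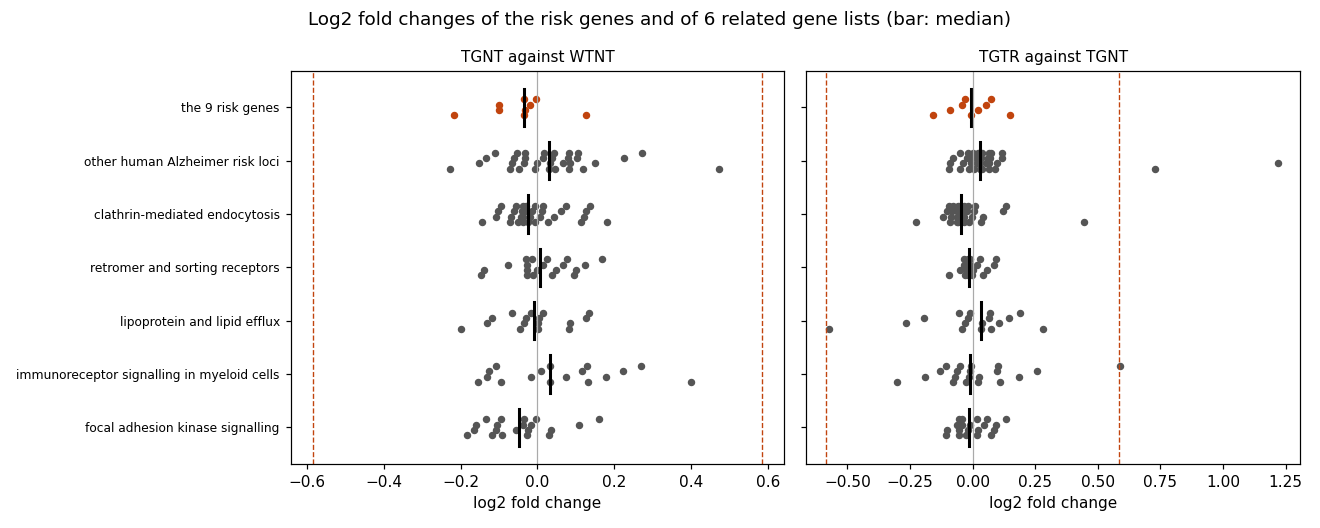
Log2 fold changes of the 9 risk genes (top row) and of the genes of 6 related lists, where they had 10 or more counts on average (points, 1 a gene; black bar, median), with dashed lines at 1.5 fold either way. All medians lie between -0.05 and 0.03. The points beyond 1.5 fold in the treatment comparison include Ace at 1.22 (30.5 ± 43.6 RPM, mean ± SD, in TGTR rats) and Adamts1 at 0.73. None of the points shown passed an adjusted p under 0.05.

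The TGNT rats of the separate tables were set side by side, since they share genotype, sex, age and diet by their labels. The tables were normalized apart, and no test was made between them. Abca7 was at 12.3 to 20.5 RPM in the genotype table and 38.0 to 41.8 RPM in the treatment table, a ratio of means of 2.34. Picalm was at 171 to 213 RPM and 104 to 125 RPM (ratio 0.599), and Cd2ap at 33.8 to 40.3 RPM and 21.9 to 25.7 RPM (ratio 0.627). For 6 of the 9 genes the TGNT rats of the separate tables did not overlap, as for 55.7% of 11343 genes, whose ratios had a median of 1.01 and quartiles of 0.764 and 1.38. For those 6 genes the ratio between tables was farther from 1 than the fold change within either table, and levels of WTNT and TGTR rats were not compared.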

How the data were processed

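Libraries were stranded poly(A) mRNA of the hippocampus (the left by the labels, the right by the study's methods). The authors' processing notes name bcl2fastq 2.17, Bowtie2 2.1.0, RSEM 1.2.15, edgeR and the build rn6. Per comparison the authors deposited estimated counts per gene and RPM, a signal scaled with TMM factors. Estimated counts were rounded and fitted in edgeR 4.0.16 (R 4.3.3) (quasi-likelihood test, TMM, 17168 genes, no filter), each table by itself. Calls needed a p, adjusted by Benjamini-Hochberg over all genes, under 0.05 and at least 1.5 fold. The RPM of each member was compared by an exact permutation test of both tails (18 tests; the smallest possible p was 0.00794 and 0.00476). The 9 members had whole estimated counts in every rat (exactly, as deposited); shared reads were not measured. The fit was tested on simulated data.

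Members and lists were chosen with earlier results of these data known. Named by rule are all members, App, of each list the genes called or, failing that, the gene of lowest p, and Ttr, a marker set apart in 1 rat. Sharpin, Nr1h2, Ace, Camk2a and Snap25 are named outside this rule. Alternatives were DESeq2 1.42.0, the likelihood ratio test, limma 3.58.1 on log2(RPM + 1) and log2(RPM + 0.1), RLE and library size scaling, filterByExpr, a mean of at least 10 counts, a replicate block and leaving out each rat. P-values come from tests that took single rats as independent. The rats were housed in pairs, and the part of shared cages was not tested. Intervals cover the spread between rats and counting, not the RSEM assignment.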

Additional observations from a re-analysis of the deposited data

Results flagged for a closer look

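Of 64 groups of values checked for a rat set apart from its group by Dixon's ratio, 4 held such a rat, where chance gives about 3.2. Ptk2b was at 1000.0 RPM in TGNT replicate 1 of the genotype comparison, and the next rat was at 843 RPM. The microglia markers summed to 180.9 RPM in TGTR replicate 5, the lowest of its group, and the next was at 193 RPM. The choroid plexus markers summed to 2822 RPM in the same rat, against 134 RPM in the next. The blood markers summed to 1293 RPM in TGTR replicate 4, against 258 RPM in the next. Leaving out TGTR replicate 5 or 4 gave 0 called members, as with all rats.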

How the results depend on the processing

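In the genotype comparison the likelihood ratio test called 4 genes and put 0 members at an unadjusted p under 0.05, against 2 genes and 2 members as reported. That number of members was 1, Clu, with limma on log2(RPM + 1) or log2(RPM + 0.1) and with library size only. It was 1, Sorl1, with RLE, filterByExpr, a mean of at least 10 counts and the replicate block. It ranged from 0 to 2 without single rats: 0 without WTNT replicates 1, 2 or 4 or TGNT replicates 2, 3 or 5, and 1 without WTNT replicate 5 or TGNT replicates 1 or 4. In the treatment comparison DESeq2 called 3 genes and the likelihood ratio test 5, the replicate block 1, and without single rats the members at an unadjusted p under 0.05 ranged from 0 to 2, with 2 only without TGNT replicate 1. By the exact test of RPM, members under 0.05 ranged from 0 to 1 (genotype, 1 without TGNT replicate 1) and from 0 to 2 (treatment, 2 without TGNT replicate 1). The number of members called was 0 under every alternative run. The share of all genes at an unadjusted p under 0.05 is not given for the alternatives. Their counts of members at that p are therefore not read as a result.

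Signs turned for log2 fold changes between -0.10 and 0.02 as reported, the largest of them that of Inpp5d in the genotype comparison. With library size only they were 0.0081 for Picalm (genotype), 0.0286 for Bin1 and 0.0035 for Sorl1 (treatment). With the replicate block they were 0.0217 for Bin1, 0.0323 for Sorl1 and -0.0845 for Cd2ap (treatment). Without single rats the genotype values ranged from -0.0474 to 0.0354 for Picalm, -0.105 to 0.0678 for Abca7, -0.0972 to 0.0207 for Cd2ap, -0.134 to 0.0982 for Plcg2 and -0.188 to 0.0247 for Inpp5d. The treatment values ranged from -0.0377 to 0.0279 for Bin1, -0.173 to 0.0483 for Sorl1, -0.0644 to 0.0718 for Cd2ap and -0.107 to 0.0081 for Plcg2. The cause was not tested. Rats with the same replicate number did not deviate together (r from -0.19 to 0.303 and from -0.528 to 0.0928), so the block has no basis in the pairing of the rats. Depth limits Plcg2 most, with 16 to 47 counts a rat in the genotype comparison.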
